A study of Mus musculus with 4 samples.

Results

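Toll-like receptors and the proteins that present bacterial lipopolysaccharide (LPS) to them were examined in subclones of the mouse hybridoma 36-65. The set held 10 genes, chosen by name as the receptors Tlr1, Tlr2, Tlr4, Tlr6, Tlr7 and Tlr9, the LPS binding partners Ly96, Cd180 and Ly86, and the adaptor Myd88. All 10 were found, with 15 of the 45037 probe sets tested and 10 of the 18193 genes. A hybridoma arises from the fusion of a B cell and a myeloma cell and secretes antibody, and class switching replaces the constant region of the antibody heavy chain. The 2 subclones H23 and H27 (high switching replicates 1 and 2) are labelled as switching spontaneously at high frequency in culture, and were set against the 2 subclones L25 and L27 (low switching replicates 1 and 2), labelled as switching at low frequency. All 4 came from the same hybridoma, grew in the same medium with 10% fetal calf serum and gave 1 GeneChip array of total RNA each, and no added LPS or other stimulus is named in the labels. The labels do not say if subclones of 1 class have separate origins, so the p-values reflect only how these 4 subclones vary.

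Toll-like receptors are membrane proteins that recognise molecules of microbes. TLR4 at the cell surface binds LPS together with MD-2, the product of Ly96, and CD180 with its partner MD-1, the product of Ly86, forms a similar complex on B cells. TLR2 pairs with TLR1 or TLR6 to bind bacterial lipoproteins, TLR7 binds RNA and TLR9 binds DNA inside endosomes, and all of these Toll-like receptors signal through the adaptor MyD88. In mouse B cells LPS drives proliferation and antibody secretion, and together with cytokines it directs class switching.

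Markers were used to check the cells. All 8 plasma cell markers measured, among them Sdc1, Jchain and Irf4, lay above the median probe set of every array, as did 3 of 6 B cell markers. So did 4 of 5 T cell markers and 3 of 5 dendritic cell markers, so this criterion alone does not identify a cell type. Of the macrophage and granulocyte markers, whose cells are known for high Toll-like receptor expression, 4 of 11 (Itgam, Mpeg1, Csf1r and Lyz2) lay above the median probe set on all 4 arrays and 6, among them Adgre1 and S100a8, lay below it. Array medians were between 5.25 and 5.30 on the log2 scale, and precision is limited by having 4 arrays. Over all probe sets 674 were higher and 944 lower in high switching subclones, by limma with an adjusted p under 0.05.

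Tlr4 was the member that differed. It fell in high switching subclones on 2 of its 4 probe sets, and no probe set of the other 9 genes passed. Over all probe sets 3.59% passed, 2.1% as lower and 1.5% as higher, beside 2 and 0 of the 15 member probe sets. On probe set 1418162_at the log2 intensity of Tlr4 was 4.91 in H23 and 4.56 in H27, against 8.26 in L25 and 7.28 in L27. On probe set 1418163_at it was 5.79 in H23 and 5.71 in H27, against 8.22 in L25 and 7.22 in L27. Both high switching subclones were thus below both low switching subclones on each probe set. On 1418162_at even the dimmer low switching subclone was 5.15-fold above the brighter high switching subclone.

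The mean of 1418162_at was 4.73 ± 0.25 (SD, n = 2) in high switching and 7.77 ± 0.70 in low switching subclones, a log2 difference of -3.03 ± 0.32 (SE; 95% interval -3.81 to -2.26; limma adjusted p = 0.0118). Tlr4 was therefore 8.20-fold lower in high switching subclones on this probe set, with an interval of 4.80 to 14.0. The mean of 1418163_at was 5.75 ± 0.06 in high switching and 7.72 ± 0.71 in low switching subclones, a log2 difference of -1.97 ± 0.31 (SE; limma adjusted p = 0.0309). Among the 944 probe sets that fell, 1418162_at had the 34th and 1418163_at the 89th largest difference. In high switching subclones 1418162_at lay below the median probe set, where brightness may not follow the transcript's amount, so its fold is approximate.

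The remaining Tlr4 probe sets were dim and differed in the same direction without passing. Probe set 1442827_at read 3.70 in H23 and 3.87 in H27, against 5.60 in L25 and 4.73 in L27, a log2 difference of -1.38 ± 0.27 (SE; limma adjusted p = 0.0549). Probe set 1430695_at read 3.90 in H23 and 4.01 in H27, against 4.30 in L25 and 4.25 in L27, a log2 difference of -0.32 ± 0.11 (SE; limma adjusted p = 0.191). Every high switching value lay below every low switching value on all 4 Tlr4 probe sets.

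**Figure D1:**
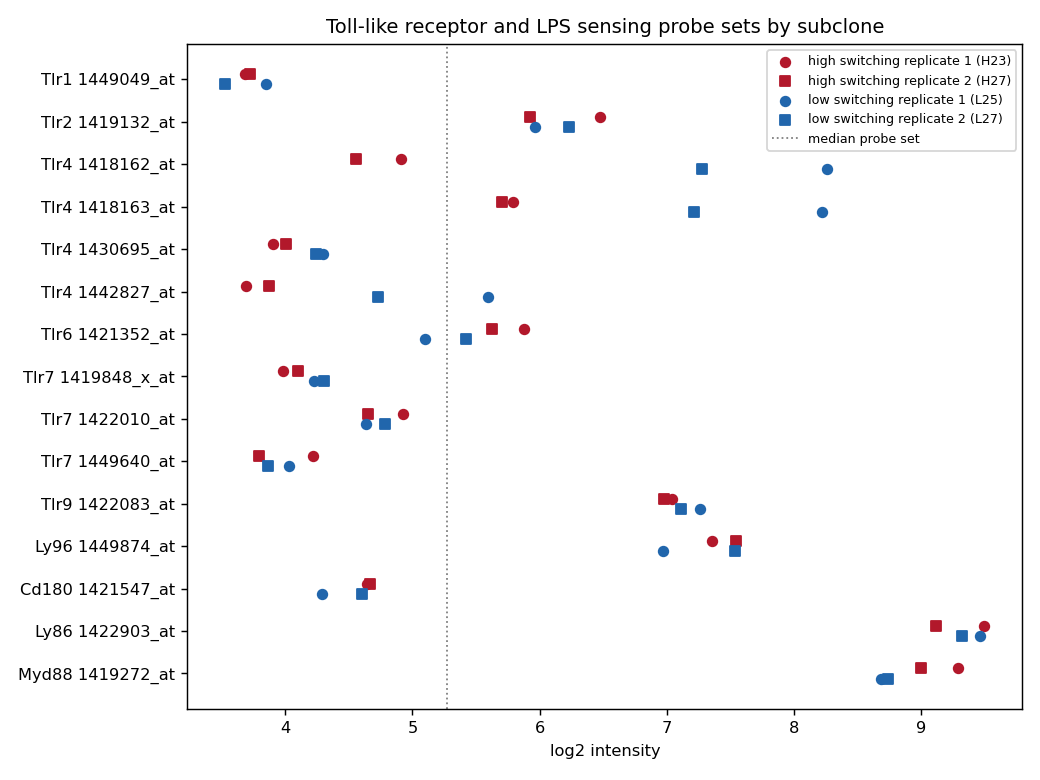
Log2 intensity (x axis) of the 15 member probe sets (rows) in the 4 subclones; red marks are high switching and blue marks low switching subclones, circles replicate 1 and squares replicate 2, and the dotted line is the mean of the array medians. On Tlr4 probe sets 1418162_at and 1418163_at the red marks lie between 4.56 and 5.79 and the blue marks between 7.22 and 8.26. The marks of the other genes lie closer together, with differences of class means between -0.22 and 0.49.

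The low switching subclones also differed from each other in Tlr4. L25 read higher than L27 on all 4 probe sets, and L27 minus L25 was -0.98 on 1418162_at, -1.002 on 1418163_at, -0.86 on 1442827_at and -0.05 on 1430695_at. Among probe sets with a low switching mean of at least 6, L25 was 1.5-fold or more above L27 on 1.23%. The hybridization controls, RNAs added in fixed amounts, had mean log2 intensities of 10.79 in H23 and 11.23 in H27, against 11.32 in L25 and 10.72 in L27, so they were also higher in L25 than in L27. The level was entered as a block of arrays above its mean (H27 and L25) or below it (H23 and L27), which leaves fewer degrees of freedom. Each side held an array of each class, so the log2 differences of 1418162_at and 1418163_at could not change. Their limma adjusted p-values in this fit were 0.0926 and 0.106, so neither passed. The part of this level in the Tlr4 difference was not tested.

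When 1 array was left out, the lone array of its class being assumed to vary like the other class, 1418162_at kept its call each time, with log2 differences between -3.53 and -2.54 and limma adjusted p-values between 0.00477 and 0.0437. The call of 1418163_at ended without high switching replicate 1 (adjusted p = 0.092) and without high switching replicate 2 (0.0967), with log2 differences of -2.01 and -1.93. Without low switching replicate 2, probe set 1442827_at passed as well, with a log2 difference of -1.81 (adjusted p = 0.0169). With 2 arrays in each class, the smallest two-sided p of an exact permutation test is 0.333, so the calls depend on limma's sharing of variance between probe sets.

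The genes beside Tlr4 on chromosome 4 did not show a difference of this size. The nearest measured genes were Astn2 and the ubiquitin ligase gene Trim32 on one side, and Brinp1 and the centrosomal gene Cdk5rap2 on the other. Their log2 differences were -0.25 for Astn2, -0.42 for Trim32, -0.18 for Brinp1 and -0.12 for Cdk5rap2, and none of them passed. Of the 20 measured genes on each side, 1 passed, Rgs3, a regulator of G protein signalling that fell by 0.56 on the log2 scale. The 40 genes had differences from -0.56 to 0.35 with a median of -0.01, although 28 of them had a mean under 6, where differences are compressed. Over the nearest 20 genes on each side with a mean of at least 6, the median was -0.27, and Tlr4 minus this median was -1.70 on 1418163_at.

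**Figure D2:**
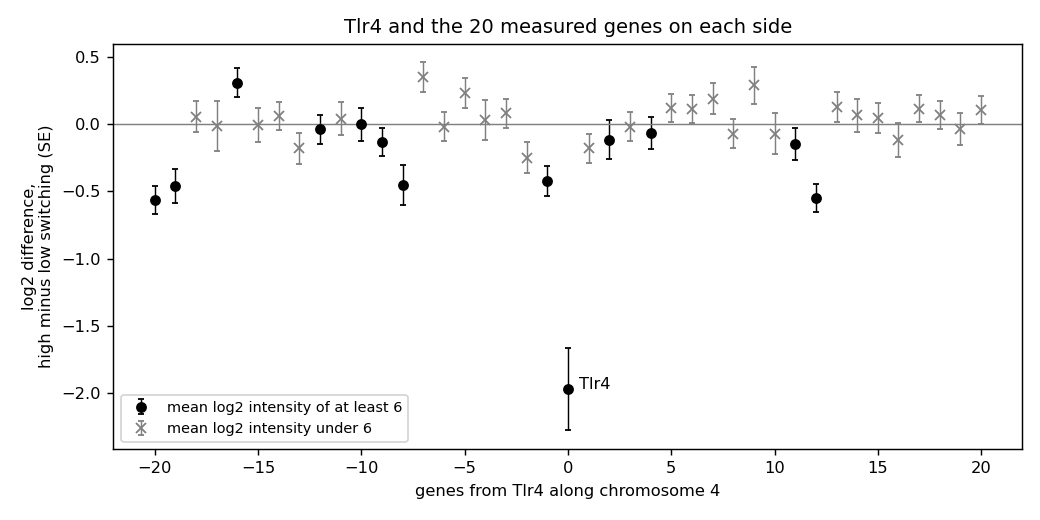
Log2 difference of high minus low switching (y axis, with SE) for Tlr4, by its probe set 1418163_at, and for 20 measured genes on each side in their order along chromosome 4 (x axis, in genes from Tlr4); filled circles have a mean log2 intensity of at least 6 and crosses a lower mean. Tlr4 lies at -1.97, and its neighbours lie between -0.56 and 0.35.

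Genes with the values most like those of Tlr4 were found by the distance between 4 log2 values after each probe set's mean was removed. Each gene was taken by its nearest probe set, and its other probe sets, where it has any, may differ. The nearest to 1418162_at were Myo3b, Tusc1, Slc16a5, Wnt10a and Cttn, at distances from 0.43 to 0.64, and the nearest to 1418163_at were Cyfip2, Calhm6, Jun, Akr1c13 and Ppfia4, at distances from 0.15 to 0.33. Cyfip2, which encodes a partner of the actin-regulating WAVE complex, read 5.84 in H23 and 5.69 in H27, against 8.17 in L25 and 7.36 in L27. The likeness rests on 4 arrays and is a description.

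The LPS binding partner of TLR4 did not follow it. Ly96 (MD-2) read 7.35 in H23 and 7.55 in H27, against 6.97 in L25 and 7.54 in L27, so the classes overlapped. The log2 difference was 0.20 ± 0.20 (SE; 95% interval -0.29 to 0.68; limma adjusted p = 0.704). L25, the subclone with the brightest Tlr4 probe sets, had the lowest Ly96 value.

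Cd180 (RP105), the receptor homologue on B cells, read 4.64 in H23 and 4.67 in H27, against 4.29 in L25 and 4.60 in L27. All these values lay below the median probe set, and the log2 difference of 0.21 ± 0.14 (SE) did not pass (limma adjusted p = 0.511). Its partner Ly86 (MD-1) read 9.50 in H23 and 9.12 in H27, against 9.46 in L25 and 9.32 in L27. The Ly86 values overlapped between classes, with a log2 difference of -0.08 ± 0.16 (SE; 95% interval -0.46 to 0.30), and lay well above the median probe set of every array.

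Of the receptors for lipoproteins, Tlr2 read 6.48 in H23 and 5.93 in H27, against 5.96 in L25 and 6.23 in L27. The classes overlapped, and the difference between the high switching subclones was larger than the log2 difference between class means of 0.11 ± 0.20 (SE). Tlr1 read 3.68 in H23 and 3.73 in H27, against 3.85 in L25 and 3.53 in L27, with a log2 difference of 0.02 ± 0.14 (SE) at the dim end of the range. Tlr6 read 5.87 in H23 and 5.63 in H27, against 5.10 in L25 and 5.42 in L27. Both high switching values of Tlr6 were above both low switching values, but its log2 difference of 0.49 ± 0.15 (SE; unadjusted p = 0.0190) did not pass after adjustment over all probe sets by limma (adjusted p = 0.162).

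Among the endosomal receptors, Tlr9 read 7.04 in H23 and 6.98 in H27, against 7.26 in L25 and 7.11 in L27. The classes did not overlap, yet the log2 difference of -0.17 ± 0.11 (SE; 95% interval -0.45 to 0.10) did not pass (limma adjusted p = 0.4996). Tlr7 has 3 probe sets, all dimmer than the median probe set on the 4 arrays, with log2 differences of -0.22, 0.08 and 0.05 and limma adjusted p-values from 0.360 to 0.926. The Tlr7 probe sets thus did not share a direction.

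Myd88, the adaptor these receptors share, read 9.29 in H23 and 9.001 in H27, against 8.68 in L25 and 8.74 in L27. Both high switching values were above both low switching values, and the mean was 9.15 ± 0.20 (SD, n = 2) in high switching and 8.71 ± 0.04 in low switching subclones. The log2 difference of 0.43 ± 0.13 (SE; unadjusted p = 0.0168) did not pass after adjustment by limma (adjusted p = 0.154). An unadjusted p under 0.05 was found for 18.6% of all probe sets and for 6 of the 15 member probe sets, namely those of Tlr4, Tlr6 and Myd88.

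Promoters are shown for the 3 members whose 250 bases before an annotated start site held a motif of Toll-like receptor or interferon signalling. RefSeq start-site sequences of assembly GRCm38.p6 were at hand for 7 of the 10 genes, with 10 start sites. None was at hand for Tlr4, Tlr7 and Ly96, so these genes were not searched. The motifs searched on both strands were a pair of the letters GAAA with any 2 bases between them, the core bound by interferon regulatory factors (IRF), and the NF-kB consensus motif, and capitals mark the stretch that matched.
Myd88: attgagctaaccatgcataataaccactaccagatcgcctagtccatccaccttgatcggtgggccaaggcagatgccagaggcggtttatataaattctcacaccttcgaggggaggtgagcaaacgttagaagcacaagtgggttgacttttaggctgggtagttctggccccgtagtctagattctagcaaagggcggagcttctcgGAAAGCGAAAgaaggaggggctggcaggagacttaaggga
Tlr6: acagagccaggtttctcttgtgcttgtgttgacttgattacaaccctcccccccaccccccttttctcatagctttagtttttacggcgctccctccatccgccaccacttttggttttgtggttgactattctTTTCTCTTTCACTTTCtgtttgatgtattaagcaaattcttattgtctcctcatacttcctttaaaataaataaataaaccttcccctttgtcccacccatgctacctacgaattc
Tlr2: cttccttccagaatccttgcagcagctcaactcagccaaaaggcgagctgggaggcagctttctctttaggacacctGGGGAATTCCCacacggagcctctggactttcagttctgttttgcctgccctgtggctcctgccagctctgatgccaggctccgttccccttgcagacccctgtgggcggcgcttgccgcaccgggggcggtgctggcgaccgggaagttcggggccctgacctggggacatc

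The Myd88 sequence lies at chr9:119340019-119340268 on the minus strand and holds 1 match of the IRF motif that ends 30 bases before the start site. The Tlr6 sequence lies at chr5:64959167-64959416 on the minus strand and holds 2 overlapping matches of the IRF motif, read on the opposite strand, that end 100 bases before the start site. The Tlr2 sequence lies at chr3:83841609-83841858 on the minus strand and holds 3 overlapping matches of the NF-kB motif within 11 bases. These were counted over both strands, and a stretch among them that reads the same on both strands was counted on each. Of 32851 promoters of this length, 2.98% held the IRF motif and 7.25% the NF-kB motif. A match of letters is a description of the sequence and says nothing of whether a factor binds there in these cells.

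Seen as a set, the members other than Tlr4 had log2 differences between -0.22 and 0.49 with SEs between 0.11 and 0.20, on 11 probe sets. The median over all 15 member probe sets was 0.02, beside 0.01 over all probe sets. The classes did not overlap for 9 of the 15, 3 with high switching above low and 6 below, of which 4 belong to Tlr4. Over all probe sets they did not overlap for 47.3%, with 25.1% above and 22.2% below.

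**Figure D3:**
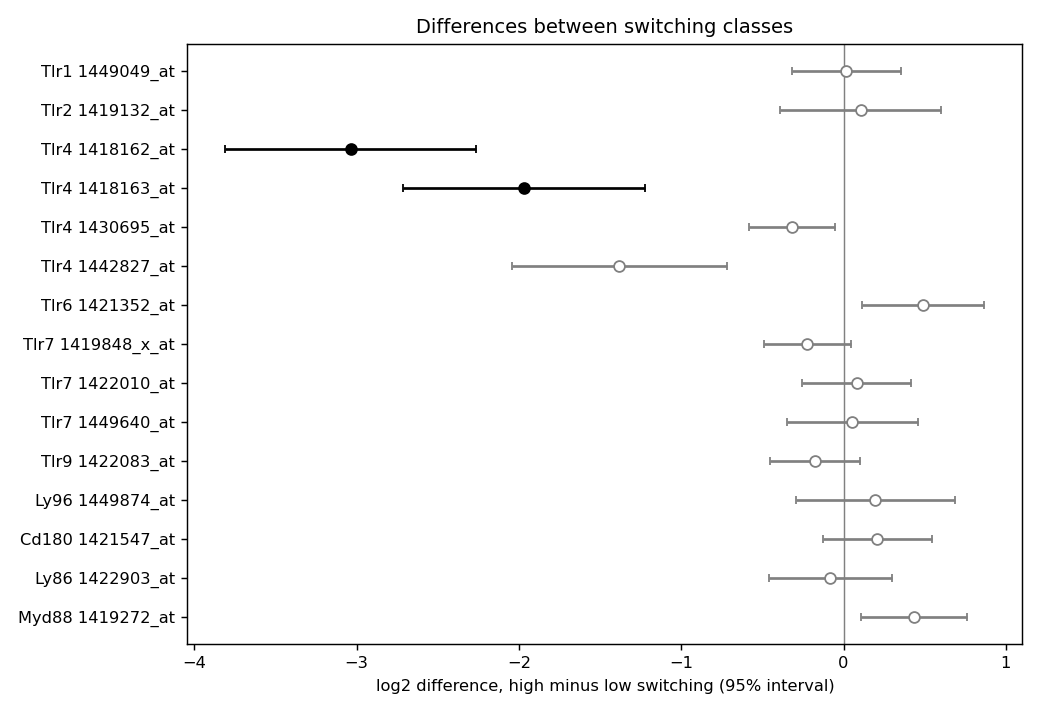
Log2 difference of high minus low switching (x axis) with its 95% interval for the 15 member probe sets (rows); filled points passed limma at an adjusted p under 0.05. Tlr4 probe sets 1418162_at (-3.03) and 1418163_at (-1.97) are the filled points, and the 11 probe sets of other genes lie between -0.22 and 0.49.

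Other genes of the pathway were followed in 9 lists by role, with 1 probe set for each gene. Of 85 genes measured, 4 rose, 4 fell and 77 did not pass, which is 9.41%, beside 4.82% of all genes by the same rule, 2.04% higher and 2.78% lower. The median log2 difference was 0.01 for these genes and 0.01 for all genes. Ptpn6, Tnfaip3, Unc93b1, Il6, Tnf and Il1b are named below after their values were seen.

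Among 12 genes of receptor folding, transport and cleavage, 1 rose, 1 fell and 10 did not pass, with a median log2 difference of 0.06. Cnpy4, a chaperone-like protein known to affect TLR4 at the cell surface, read 7.79 in H23 and 7.66 in H27, against 8.58 in L25 and 8.57 in L27, and fell by 0.85 on the log2 scale (SE 0.11; limma adjusted p = 0.0195). Lgmn, an endosomal protease that can cleave TLR9, rose by 0.66 (SE 0.11; limma adjusted p = 0.0359), with 10.96 in H23 and 10.91 in H27, against 10.22 in L25 and 10.33 in L27. Unc93b1, which carries the nucleic acid receptors to endosomes, had a log2 difference of -0.55 and just missed the threshold (limma adjusted p = 0.0563). Hsp90b1, the chaperone on which most of these receptors depend, and the protease gene Ctss had log2 differences of 0.34 and 0.33 and did not pass.

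Of 4 adaptors 1 rose, with a list median of 0.04. Tirap, which links TLR2 and TLR4 to MyD88, read 10.03 in H23 and 10.05 in H27, against 9.27 in L25 and 9.37 in L27, a log2 difference of 0.72 ± 0.11 (SE; limma adjusted p = 0.0280). The classes did not overlap on its second probe set either, where the difference was 0.67 (limma adjusted p = 0.05004, not under the threshold). Pik3ap1, which links the receptors to phosphoinositide kinase, had a log2 difference of -0.78 ± 0.28 (SE) and did not pass (limma adjusted p = 0.209).

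Of 16 kinases and ubiquitin ligases 1 fell, with a list median of 0.01. It was Ikbke, a kinase of interferon regulatory factors, with a log2 difference of -0.55 ± 0.10 (SE; limma adjusted p = 0.0495) and means of 4.53 in high switching and 5.08 in low switching subclones, below the median probe set. Ube2v1 and Tab2, which act between TRAF6 and its kinases, had log2 differences of -0.42 and -0.16 and did not pass. Of 6 transcription factors 1 fell, with a list median of -0.31. Irf3, which drives interferon genes, had a log2 difference of -0.71 ± 0.12 (SE; limma adjusted p = 0.0398) and passed on 2 of 4 probe sets. Its remaining probe sets had log2 differences of 0.17 and -0.21, so they did not share a direction, and did not pass. The NF-kB subunit gene Rela had a log2 difference of -0.32 (limma adjusted p = 0.180).

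Of 14 brakes on the pathway 1 fell, with a list median of -0.19. Sigirr, an inhibitory receptor of the related interleukin 1 receptor family, had a log2 difference of -0.61 ± 0.11 (SE; limma adjusted p = 0.0490). The inhibitor genes Nfkbia and Cyld had log2 differences of -0.29 and 0.45 and did not pass. Tnfaip3 (A20) read 5.62 in H23 and 6.98 in H27, against 7.14 in L25 and 7.81 in L27. Its log2 difference of -1.17 ± 0.45 (SE; limma adjusted p = 0.236) was smaller than the 1.36 between the high switching subclones. The other Tnfaip3 probe set had a log2 difference of 0.03. For Ptpn6, the phosphatase SHP-1, its brightest probe set gave 0.55 (limma adjusted p = 0.0563), whereas its other probe set rose by 2.73 (limma adjusted p = 0.00299).

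Among 20 response genes, 2 rose, 0 fell and 18 did not pass, with a median log2 difference of 0.01. At an unadjusted p under 0.05 by limma there were 4 of the 20, beside 4169 of all 18193 genes by the same rule. The costimulatory receptor gene Cd40 had means of 8.42 ± 0.30 (SD, n = 2) in high switching and 6.74 ± 0.14 in low switching subclones, a log2 difference of 1.68 ± 0.17 (SE; limma adjusted p = 0.0104), and all 3 of its probe sets rose. The adhesion gene Icam1 read 8.57 in H23 and 8.21 in H27, against 6.85 in L25 and 7.31 in L27, a log2 difference of 1.31 ± 0.20 (SE; limma adjusted p = 0.0280). Il10 had a log2 difference of -0.72 ± 0.15 (SE) and Gadd45b of 0.11 ± 0.23 (SE), and neither passed. The inflammatory cytokine genes Il6, Tnf and Il1b had log2 differences of -0.07, -0.02 and -0.01.

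No gene passed among 5 other Toll-like receptors, 3 ligand carriers and 5 related receptors of the interleukin 1 family, with 0, 0 and 1 at an unadjusted p under 0.05 by limma and list medians of 0.12, 0.03 and 0.01. Tlr12 and Tlr8 had log2 differences of 0.31 and -0.17, the LPS carrier genes Lbp and Cd14 of 0.03 and 0.20, and the receptor genes Il1rap and Il1r1 of -0.58 and 0.09.

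**Figure D4:**
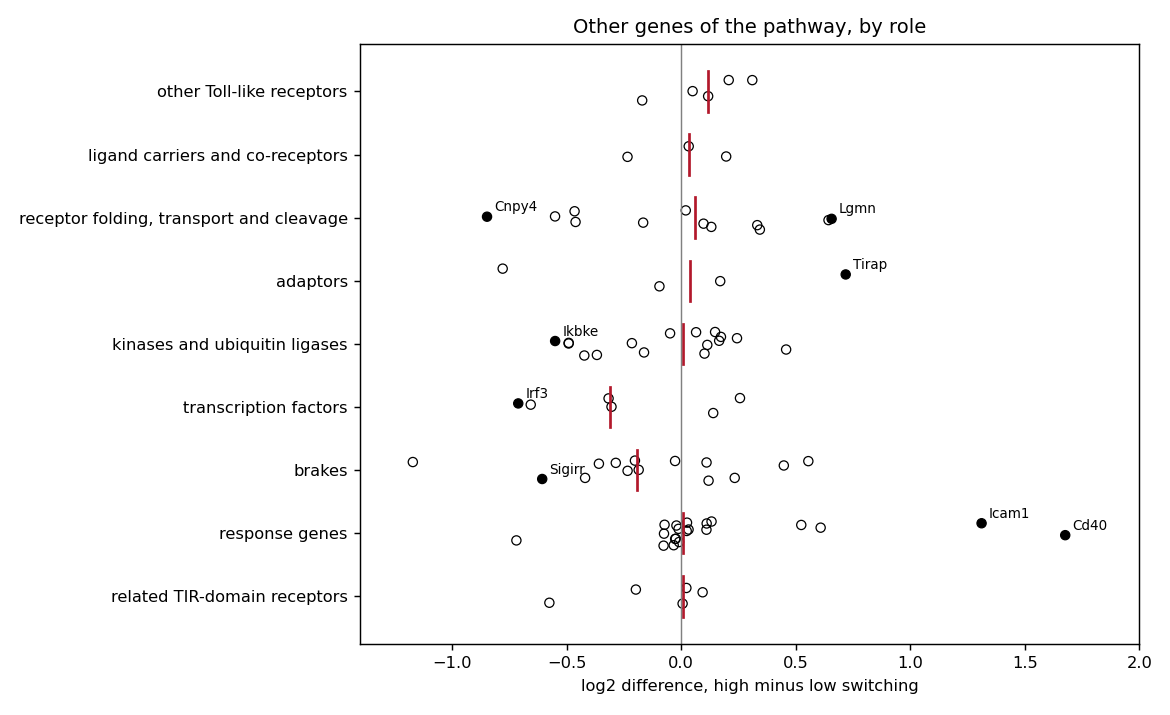
Log2 difference of high minus low switching (x axis) of 85 further pathway genes in 9 lists by role (rows, points spread vertically for legibility); filled points passed limma at an adjusted p under 0.05 and red bars are list medians. Cd40 (1.68), Icam1 (1.31), Tirap (0.72) and Lgmn (0.66) lie to the right, and Cnpy4 (-0.85), Irf3 (-0.71), Sigirr (-0.61) and Ikbke (-0.55) to the left.

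When 1 array was left out, 0 to 2 of these pathway genes rose and 0 to 1 fell. The calls of Cnpy4, Lgmn, Tirap, Ikbke, Irf3 and Sigirr ended whichever array was left out. That of Icam1 ended without low switching replicate 1 and without either high switching replicate, and that of Cd40 ended without low switching replicate 1 (log2 difference 1.58, limma adjusted p = 0.0628).

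Marker lists were compared between the classes. Of 11 macrophage and granulocyte markers 1 passed, Itgam, with means of 6.76 in high switching and 8.14 in low switching subclones (log2 difference -1.38 ± 0.16, SE; limma adjusted p = 0.0151). The summed intensity of the list, with Itgam included, was 763 in H23 and 958 in H27, against 1049 in L25 and 1020 in L27. The list had a median log2 difference of -0.01, with 4 differences above 0 and 7 below. Besides Itgam, the differences ranged from -0.13 for Mpeg1 to 0.28 for Csf1r and did not pass. The part of these markers in the Tlr4 difference was not tested. Of 5 dendritic cell markers and 5 T cell markers 0 passed by limma, and 1 of each list had an unadjusted p under 0.05, Zbtb46 and Cd3g. Single markers of the B cell lineage also passed, where 4.82% of all genes did. Of 6 B cell markers 1 rose, Cd79b (log2 difference 0.77, limma adjusted p = 0.0238). The list had a median log2 difference of 0.01, with 4 differences above 0 and 2 below. Its summed intensity was 22322 in H23 and 22092 in H27, against 15132 in L25 and 16997 in L27. Its brightest gene, Blnk, had a log2 difference of 0.53 and did not pass (limma adjusted p = 0.0879). Of 8 plasma cell markers 2 fell, Xbp1 (-0.71, limma adjusted p = 0.0461) and Tnfrsf17 (-0.71, limma adjusted p = 0.0454). The plasma cell list had a median log2 difference of -0.22, with 3 differences above 0 and 5 below. Its summed intensity was 63680.0 in H23 and 68010 in H27, against 70591 in L25 and 73982 in L27. The part of these marker values in the differences of Tlr4, Cd40 and Icam1 was not tested. In bulk RNA, fewer cells with a transcript and less transcript in each cell cannot be told apart.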

How the data were processed

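Total RNA of the 4 subclones was labelled with biotin and hybridized to 1 array each, per the labels. The authors deposited linear intensities made with RMA (background correction, normalization between arrays and summary of probes), which the submitters' processing notes name without a version. RMA compresses differences of dim probe sets. Intensities were transformed to log2, and after removal of 64 control probe sets the other 45037 were all tested. Of these, 34945 had 1 gene symbol in the platform annotation, 932 several and 9160 none. Chromosomes and gene order came from a gene table of GRCm38.p6, since the authors' build was not given in the sources at hand.

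A linear model with moderated variances (limma 3.58.1, R 4.3.3) gave the high minus low switching difference of every probe set, tested on both sides. P-values were adjusted by Benjamini and Hochberg's method across the whole table and called under 0.05. The SE is moderated. For a pathway gene the brightest of its probe sets, by the mean of 4 arrays, was used, and 8 of 93 listed genes were not analysed here. Members, lists and tests were chosen with earlier results of these data known. All members were named, with list members past the threshold (up to 4 in a list) and up to 2 of the highest mean in each list, the 5 genes most like each Tlr4 probe set that passed (mean of at least 6), and 2 neighbours on each side of Tlr4. Data were simulated in 10 draws with 200 changed of 45037 probe sets, the changed ones with a mean of at least 7. There the fit recovered 0.2% of log2 changes of 0.5, 47% of 1, 96% of 2 and 100% of 4. In the real data 1618 probe sets passed, so the adjustment allowed larger unadjusted p-values than in the simulation. The simulated rates therefore do not carry over, and log2 differences of -0.55 (Ikbke) and -0.61 (Sigirr) did pass. Small differences could still be missed. Figures used matplotlib 3.10.9 in Python 3.11.15.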

Additional observations from a re-analysis of the deposited data

How the results depend on the processing

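The number of member probe sets that fell was 2. It was also 2 with either filter on dim probe sets and with probe sets of several possible transcripts left out, and 3 with a variance trend, with or without robust estimation, and with either other normalization, while 0 rose under any of the settings run. It was 1 with a minimum fold of 1.5, 0 with the hybridization control level as a block, and 1 to 3 when 1 array was left out. Over all probe sets, 59 were higher and 104 lower with the minimum fold, 58 and 94 with the block, and 112 to 253 higher and 196 to 329 lower when 1 array was left out. Pathway genes numbered 0 higher and 0 lower with the minimum fold, 1 and 0 with the block, and 0 to 2 and 0 to 1 when 1 array was left out, and 1 was lower without probe sets of several possible transcripts. The cause was not tested. All 4 Tlr4 probe sets kept their direction under every alternative run, but most of these alternatives could not have reversed it. The variance settings, filters, minimum fold and block leave the difference unchanged. As the classes did not overlap on these probe sets, leaving out 1 array cannot change its sign either. Small differences of members that had not passed changed sign when some array was left out, with ranges of -0.14 to 0.17 for Tlr1, -0.17 to 0.38 for Tlr2, -0.057 to 0.22 and -0.16 to 0.27 for Tlr7 probe sets 1422010_at and 1449640_at, -0.090 to 0.48 for Ly96 and -0.27 to 0.11 for Ly86. With the median of neighbouring genes subtracted, Tlr2 turned to -0.26 and Ly86 to 0.15, and Tlr6 moved to 0.96, Tlr1 to 0.48, Tlr7 probe set 1422010_at to 0.48 and Tlr9 to -0.05. No paired analysis was possible because the replicate numbers follow only the order of the samples, and nothing in the labels ties a subclone of 1 class to a subclone of the other. With 2 arrays a class, and many members below the median probe set, small differences could have been missed.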
